A study of Mus musculus with 12 samples.

Results

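The genes described here are the 10 that carry classical MHC class I presentation and the immunoproteasome, measured by RNA sequencing in intestinal epithelial cells (IECs) of the mouse colon. They were chosen by name: the class I heavy chains H2-K1 and H2-D1, the light chain B2m, the peptide transporter genes Tap1 and Tap2, its partner Tapbp (tapasin), the immunoproteasome subunits Psmb8, Psmb9 and Psmb10, and the transactivator Nlrc5. All 10 were found once among the 46517 gene IDs of the count tables, and all 10 were among the 12522 genes with enough counts to be tested. The samples came from C57BL/6 mice aged 7 to 9 weeks that were wild type (WT) or carried the Nfkb2-/- genotype (knockout, KO), which targets the gene of the NF-kB protein p100 and its processed form p52. Mice of either genotype were untreated or received dextran sulfate sodium (DSS), a chemical that damages the lining of the colon, for 48 h. This gave 4 groups with 3 biological replicates each, 12 libraries in all. The tissue was a detached epithelial layer and not a single cell type, and the labels do not name the promoter or the construct of the knockout allele.

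In class I presentation, the proteasome cuts cytosolic proteins into peptides, the TAP transporter moves these into the endoplasmic reticulum, and the loading complex around tapasin places them on a heavy chain paired with beta-2-microglobulin. The immunoproteasome is the form of the 20S core in which Psmb8, Psmb9 and Psmb10 take the places of the standard catalytic subunits Psmb5, Psmb6 and Psmb7. Interferons raise nearly all of these genes in many cell types, and in the gut epithelium the complexes present peptides to CD8+ T cells, among them those that lie between the epithelial cells.

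Of the 10 genes, 7 lie on chromosome 17 (GRCm38, GENCODE release M21) between positions 33915899 and 35267499, the stretch of 1351601 bases that runs from Tapbp to H2-D1 within the MHC. Psmb9, Tap1, Psmb8 and Tap2 are neighbours there and together span 34335 bases, from 34181987 to 34216321. H2-K1 is at 33996017 to 34000347, Tapbp at 33915899 to 33929292 and H2-D1 at 35262730 to 35267499 of the same chromosome. The other 3 lie elsewhere: B2m at 122147686 to 122153083 of chromosome 2, Nlrc5 at 94434356 to 94527272 of chromosome 8, and Psmb10 at 105935735 to 105938444 of chromosome 8.

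The promoters of the heavy and light chains are shown because these genes share a known regulatory module, in which a CRE core and a Y box lie at a set distance and through which Nlrc5, which binds no DNA by itself, acts. The RefSeq promoter table (GRCm38.p6) held a window for 8 of the 10 genes, all but Tap2 and Nlrc5. The 250 bases before each start site were searched on both strands for the CRE core TGACG and the Y box ATTGG, and the stretches below are printed on the strand of the gene, with these motifs in capitals. In Tap1 the same CRE core is followed by no Y box at that distance.
H2-K1, chr17:34000359-34000388, minus strand: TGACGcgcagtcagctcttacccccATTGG
H2-D1, chr17:35262993-35263022, plus strand: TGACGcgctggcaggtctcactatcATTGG
Tap1, chr17:34187470-34187499, plus strand: TGACGacagagggtcctgccctcaatctgg

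The B2m promoter held the same pair, and upstream of it a match to the paired IRF element (GAAA, NN, GAAA) and one to the NF-kB site (GGG, NN, TTTCC, here on the other strand), N being any base. Both are also in capitals in the stretch printed here.
B2m, chr2:122147548-122147638, plus strand: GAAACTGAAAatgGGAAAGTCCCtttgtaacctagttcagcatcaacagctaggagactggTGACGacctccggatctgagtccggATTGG

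In H2-K1, H2-D1 and B2m exactly 20 bases lay between CRE core and Y box. This spacing was looked for after the windows had been searched, and 30 of 32851 promoter windows (0.0913%), of 26 genes, held it. Taken singly the motifs are common: TGACG was in 17.8% of all windows, ATTGG in 33.8%, the paired IRF element in 2.98% and the NF-kB site in 1.41%. A STAT site (TTC, NNN, GAA), in 7.02% of all windows, was found for 1 of the genes, Psmb8. None of the motifs overlapped another in the windows printed. Tap1 and Psmb9 are read in opposite directions from start sites 226 bases apart, so both share 1 promoter region. A match describes these letters and is no measure of binding. The windows of H2-K1 and H2-D1 held no match to the IRF or NF-kB pattern as written. Variants of these patterns were not searched, so a window without a match may still hold such a site.

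Total counts ranged from 5595909 to 8117740 per library. Levels are given as CPM, counts scaled to the size of the library, with TMM factors, and a gene is said to have passed, risen or fallen where edgeR's quasi-likelihood test gave an adjusted p under 0.05 over all 12522 genes (Benjamini-Hochberg). Nfkb2 itself was at 30.8 to 46.1 CPM in the 6 WT libraries and at 11.7 to 19.6 CPM in the 6 KO libraries, so the ranges did not overlap (exact two-sided permutation test over 924 rearrangements, p = 0.00217). All 12 epithelial markers were detected in every group. They summed to 40820 to 51050 CPM in untreated WT and 35490 to 36550 in WT under DSS. In KO the sums were 35440 to 38370 untreated and 32330 to 35450 under DSS. Under DSS, 4 of the 12 passed as lower in WT, and 4 as lower and 1 as higher in KO. Over all genes tested, 6.30% passed in either direction in WT and 3.92% in KO. The 26 leukocyte markers summed to 27.7 to 53.8 CPM in untreated WT, 86.3 to 94.2 in WT under DSS, 126 to 136 in untreated KO and 182 to 249 in KO under DSS. At least 3 of 12 stromal markers were at 0 in every group, and the erythroid list reached at most 3.86 CPM. In these bulk samples, fewer cells of a type and less RNA per cell cannot be told apart. All WT libraries carry lower library numbers than all KO libraries, so the order of the libraries and the genotype cannot be told apart either.

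Compared per length, the 3 chains of the class I molecule were the most abundant of the 10. The mean over the 12 libraries, in RPKM (CPM divided by the length of the joined exons in kilobases), was 1353 for H2-D1 (range 1170 to 1467), 1343 for B2m (1016 to 1697) and 1106 for H2-K1 (1007 to 1182). These ranges overlapped, so their order was not resolved, and all lay above every other member. Tapbp followed at 155 RPKM (126 to 185), clear of Tap1 at 80.0 (59.8 to 110). Tap1, Psmb10 at 72.6 (52.9 to 95.4) and Psmb8 at 64.3 (46.1 to 85.2) overlapped, as did Tap2 at 34.4 (25.1 to 45.9) and Psmb9 at 31.8 (19.0 to 40.5). Nlrc5 was lowest at 4.44 RPKM (2.54 to 8.45), with 148 to 406 counts per library. The length matters for this order: with the longest transcript in place of joined exons, untreated WT had 1704 RPKM for H2-K1, 1694 for H2-D1 and 1359 for B2m.

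**Figure D1:**
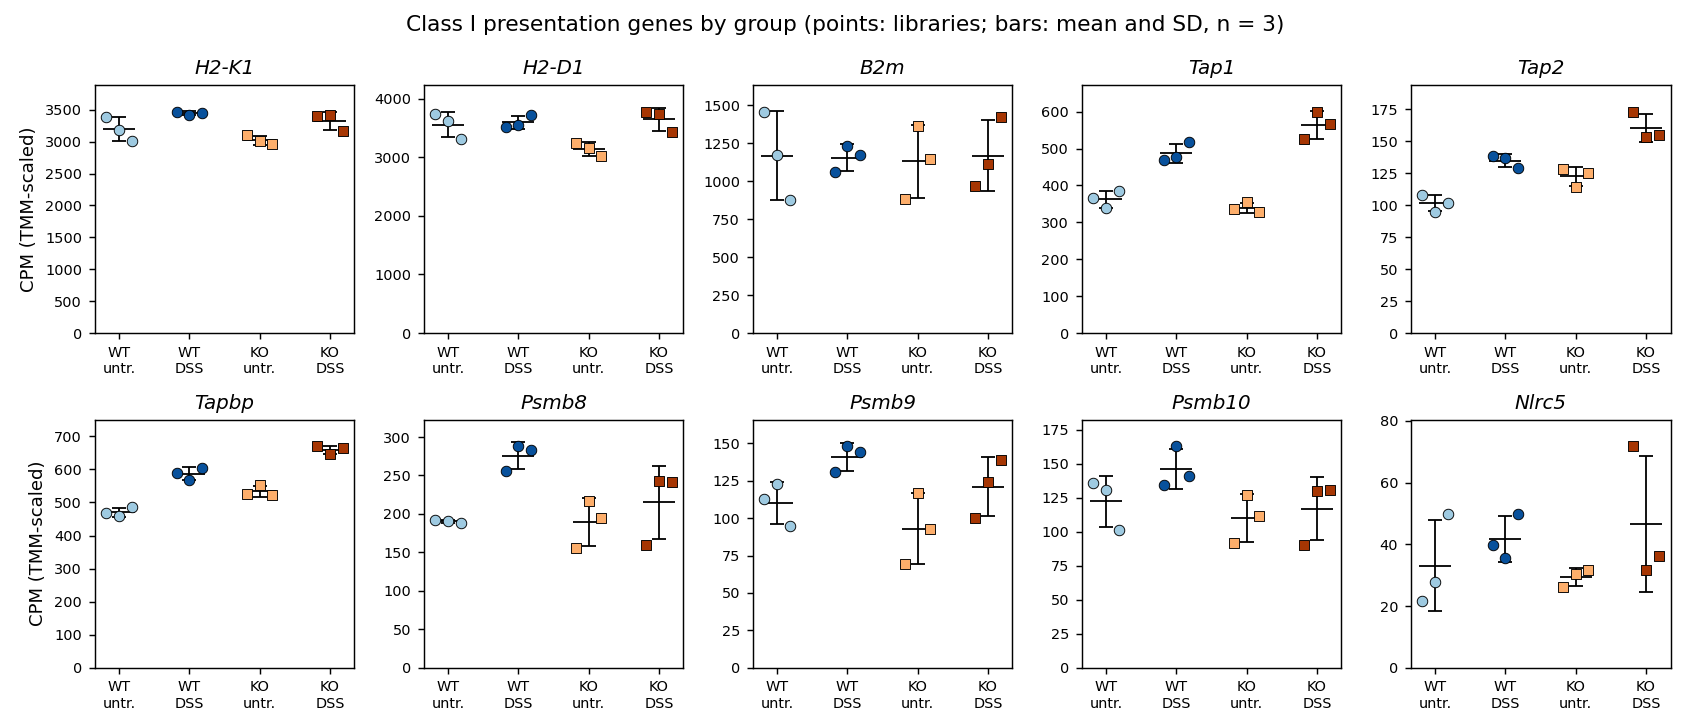
CPM of the 10 genes in the 4 groups (untr., untreated); each point is a library and the bars are mean and SD of 3, with each axis starting at 0. Tap1, Tap2 and Tapbp are higher under DSS than without it in every library of either genotype, while the points of B2m spread from 874 to 1459 CPM with no shift between groups.

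After 48 h of DSS, the genes of the peptide transporter and its loading partner were higher in both genotypes, and the chains of the class I molecule did not pass the test. In WT, 3 of the 10 genes passed, all higher: Tap1 by 1.34-fold, Tap2 by 1.33-fold and Tapbp by 1.25-fold. Over all genes tested, 2.80% passed as higher in that comparison and 6.30% in either direction. In KO the same 3 genes passed, with Tap1 higher by 1.66-fold, Tap2 by 1.31-fold and Tapbp by 1.24-fold, against 1.88% of all genes as higher and 3.92% in either direction. A replicate block was fitted because same-numbered KO samples deviated together, as 1 factor over all 12 libraries and both genotypes. With it, 1 of the 3 passed in KO: Tap1. Treated and untreated libraries did not overlap for 6 of the 10 in WT, all higher under DSS, where 20.6% of genes in all did not overlap in either direction. In KO it was likewise 6 of the 10, all higher, where the share over every gene tested was 24.3%. The median log2 fold change of the 10 was 0.32 in WT and 0.26 in KO, beside 0.0063 and 0.015 over all genes. In WT, 9 of the 10 estimates were above 0, and in KO 10 of 10.

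Tap1 encodes one chain of the peptide transporter and gave the clearest change. It stood at 365, 338 and 385 CPM in the untreated WT libraries and at 469, 476 and 517 CPM in WT under DSS. In KO it stood at 336, 355 and 328 CPM without DSS and at 526, 600 and 566 CPM with it. No DSS library of either genotype reached down to an untreated one, and the 3 highest libraries of all 12 were those of KO under DSS. The log2 fold change was 0.43 ± 0.09 (SE) in WT (edgeR adjusted p = 0.00886) and 0.73 ± 0.09 in KO (edgeR adjusted p = 0.000291). The WT call held in 15 of 18 alternative fits. It was lost without WT DSS replicate 3 (edgeR adjusted p = 0.0555, log2 fold change 0.38), with the 2 WT groups alone in the fit (edgeR adjusted p = 0.0620) and with a leukocyte marker covariate (edgeR adjusted p = 0.212). The KO call held in 18 of 18. The difference between both changes was 0.31 (95% interval 0.04 to 0.58) and did not pass (edgeR adjusted p = 0.383), so a larger response in KO was not established.

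Tap2, the other chain of the transporter, was at 108, 94.8 and 102 CPM in untreated WT and at 138, 137 and 129 CPM in WT under DSS. In KO it was at 128, 114 and 126 CPM and, under DSS, at 173, 154 and 155 CPM. Again no treated library fell to the level of an untreated one of its genotype, and untreated KO lay above untreated WT and below treated WT. The log2 fold changes were 0.41 ± 0.10 (SE) in WT (edgeR adjusted p = 0.0279) and 0.39 ± 0.10 in KO (edgeR adjusted p = 0.0468). Same-numbered KO samples deviated together, and Tap2 had edgeR adjusted p = 0.0534 there once a replicate block was fitted. The WT call was lost without untreated WT replicate 2 or any one of the 3 WT DSS libraries (edgeR adjusted p = 0.0601 to 0.113). The KO call was lost without any one of the 6 KO or the 3 WT DSS libraries (edgeR adjusted p = 0.0700 to 0.219).

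Tapbp encodes tapasin, which bridges the transporter and the empty class I molecule. Its level was 468, 459 and 485 CPM in untreated WT and 590, 567 and 605 CPM in WT under DSS. In KO it was 524, 553 and 524 CPM, and 670, 646 and 663 CPM under DSS. The 4 groups did not overlap at all, in the order untreated WT, untreated KO, treated WT, treated KO. The log2 fold changes under DSS were 0.32 ± 0.08 (SE) in WT (edgeR adjusted p = 0.0196) and 0.31 ± 0.08 in KO (edgeR adjusted p = 0.0361), the latter 0.0581 with the replicate block. The WT call was lost without untreated WT replicate 2 or WT DSS replicate 1 or 3 (edgeR adjusted p = 0.0684 to 0.0943), and the KO call without any one of the 6 KO or the 3 WT DSS libraries (edgeR adjusted p = 0.0589 to 0.148). Of 18 alternative fits, Tap2 kept its call in 11 for WT and 5 for KO, and Tapbp in 12 and 6. The log2 fold changes themselves moved little, from 0.36 to 0.52 and 0.33 to 0.47 for Tap2 and from 0.30 to 0.37 and 0.29 to 0.34 for Tapbp. Of the 50-base words of Tapbp exons, 23.2% also occur in other genes, mostly the overlapping Gm19412 on the opposite strand, and for Tap2 11.6% do so. For Psmb8 that share is 11.9%, mostly with Gm20496 on the opposite strand. For Tap1 and Psmb9 it is 3.33% and 4.19%, and their exons overlap each other by 212 bases on opposite strands. The library method keeps no strand, so such reads cannot be assigned with certainty.

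**Figure D2:**
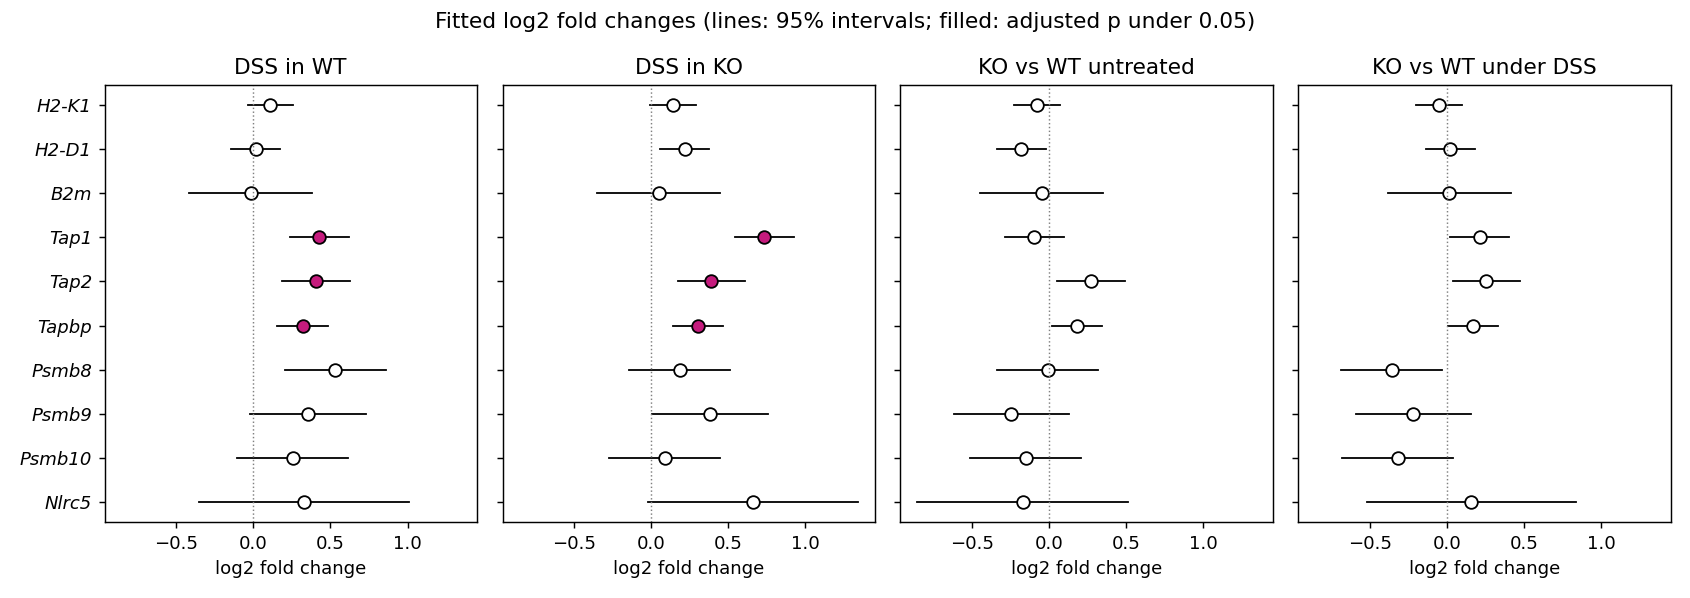
Fitted log2 fold change of each gene (points) with its 95% interval (lines) in 4 contrasts; filled points passed at an adjusted p under 0.05. Tap1, Tap2 and Tapbp are filled in both DSS contrasts, and no point is filled in the contrasts of genotype.

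The heavy chains, which bind the peptide and are read by T cells, moved little under DSS. H2-K1 was at 3383, 3191 and 3005 CPM in untreated WT and 3473, 3425 and 3453 CPM in WT under DSS. The KO libraries were at 3101, 3007 and 2960 CPM, and 3408, 3415 and 3166 CPM under DSS. In either genotype the treated libraries lay above the untreated ones, by a log2 fold change of 0.11 (95% interval -0.04 to 0.26) and 0.14 (-0.01 to 0.29), and neither passed (edgeR adjusted p = 0.465 and 0.354). The intervals exclude a rise of the size Tap1 showed in KO.

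H2-D1 was at 3746, 3619 and 3318 CPM in untreated WT and 3514, 3560 and 3719 CPM in WT under DSS, which overlap. KO libraries had 3254, 3158 and 3016 CPM, and 3784, 3746 and 3426 CPM under DSS, which do not. The log2 fold change was 0.01 (95% interval -0.14 to 0.17) in WT and 0.22 (0.06 to 0.37) in KO, without passing in either (edgeR adjusted p = 0.959 and 0.135). The KO change passed without untreated WT replicate 3 (edgeR adjusted p = 0.0359) and with the 2 KO groups alone in the fit (edgeR adjusted p = 0.0491). H2-K1 shares 9.63% and H2-D1 12.8% of its 50-base words with other genes, first among them H2-Q10 and H2-Q1.

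B2m, the light chain of every class I molecule, was at 1459, 1173 and 874 CPM in untreated WT and 1059, 1234 and 1172 CPM in WT under DSS. In KO the values were 883, 1362 and 1143 CPM, and 966, 1113 and 1424 CPM under DSS. The spread within groups was wider than any shift between them, and the 95% intervals of the DSS change ran from -0.42 to 0.38 in WT and from -0.35 to 0.45 in KO. The KO interval includes a change as large as that of Tap2 in KO, and the WT interval ends just below that of Tap2 in WT.

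The immunoproteasome subunits did not pass under DSS. All 6 of their estimates were above 0, and with the leukocyte marker covariate 5 of these 6 were below 0, all but Psmb8 in WT. Psmb8, which replaces Psmb5, was at 192, 190 and 189 CPM in untreated WT and 256, 288 and 283 CPM in WT under DSS, without overlap. The KO values were 156, 217 and 195 CPM, and 160, 243 and 242 CPM under DSS. The log2 fold change was 0.53 ± 0.15 (SE) in WT (edgeR adjusted p = 0.0550) and 0.18 ± 0.15 in KO (edgeR adjusted p = 0.640). The WT change sat at the threshold: it passed in 6 of 18 alternative fits, among them DESeq2 (adjusted p = 0.0266) and the fits without KO DSS replicate 1 (edgeR adjusted p = 0.0165) and without untreated KO replicate 1 (edgeR adjusted p = 0.0458). The difference between the genotypes' changes was -0.35 (95% interval -0.81 to 0.11) and did not pass (edgeR adjusted p = 0.652).

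Psmb9, which replaces Psmb6, was at 113, 123 and 94.9 CPM in untreated WT and 131, 148 and 144 CPM in WT under DSS. KO libraries were at 69.5, 117 and 92.7 CPM, and 99.9, 124 and 139 CPM under DSS. The treated WT libraries lay above all untreated ones, and the KO groups overlapped. The log2 fold changes were 0.36 ± 0.17 (SE) and 0.38 ± 0.17 (edgeR adjusted p = 0.317 and 0.302). On leaving out 1 library the KO value ran from 0.21 (without untreated replicate 1) to 0.58 (without untreated replicate 2).

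Psmb10, which replaces Psmb7, was at 135, 131 and 101 CPM in untreated WT and 134, 163 and 141 CPM in WT under DSS. In the KO libraries it stood at 91.8, 127 and 111 CPM, and 90.2, 130 and 131 CPM under DSS. Groups overlapped in both genotypes, with log2 fold changes of 0.26 ± 0.17 (SE) and 0.09 ± 0.17 (edgeR adjusted p = 0.497 and 0.872). The WT value was 0.13 without untreated replicate 3 and 0.17 without DSS replicate 2. In KO, Psmb8 ran from 0.058 (without untreated replicate 1) to 0.35 (without DSS replicate 1) on leaving out a library.

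Nlrc5, the transactivator of class I genes, was at 21.6, 27.9 and 49.9 CPM in untreated WT and 39.6, 35.5 and 49.9 CPM in WT under DSS. Its KO values were 26.1, 30.4 and 31.7 CPM, and 71.8, 31.7 and 36.3 CPM under DSS. A single library, KO DSS replicate 1, held the highest value (without it the log2 fold change in KO was 0.21), and the log2 fold changes of 0.33 ± 0.32 (SE) and 0.66 ± 0.32 did not pass (edgeR adjusted p = 0.701 and 0.336). The 95% interval in WT, -0.35 to 1.01, leaves the response of this gene undetermined.

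Much of the spread of the immunoproteasome genes within groups lay between libraries and was shared by the standard proteasome. The 14 standard subunits of the 20S core (3 catalytic and 11 others) summed to 1384 CPM in untreated WT replicate 3, 1460 in untreated KO replicate 1 and 1281 in KO DSS replicate 1, and to 1547 to 2010 CPM in the other 9 libraries. The same 3 libraries had the lowest summed Psmb8, Psmb9 and Psmb10 of their groups: 384, 317 and 350 CPM. They were also low in short genes in general: over 658 genes under 1000 bases, their median log2 deviation from the group mean was -0.28, -0.28 and -0.23. B2m, with 860 bases of joined exons, was likewise lowest of its group in these 3 libraries, at 874, 883 and 966 CPM. The part of gene length in the subunit and B2m values was not tested.

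**Figure D3:**
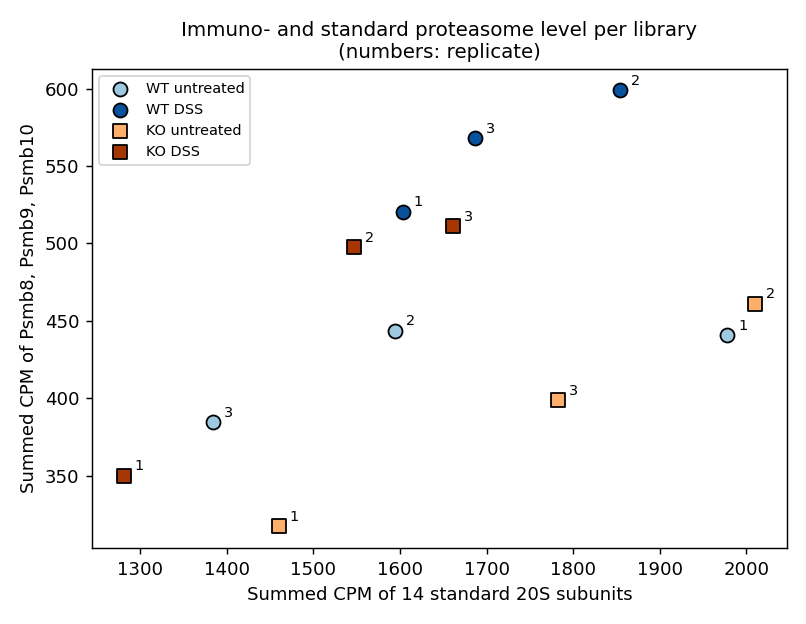
Summed CPM of Psmb8, Psmb9 and Psmb10 (vertical) against that of the 14 standard 20S subunits (horizontal), 1 point per library with its replicate number; neither axis starts at 0. Untreated WT replicate 3, untreated KO replicate 1 and KO DSS replicate 1 lie lowest on both axes within their groups, and WT under DSS lies at 521 CPM or more on the vertical axis.

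A ratio of each immunosubunit to the standard subunit it replaces, taken within a library, removes what both share. The log2 ratio of Psmb9 to Psmb6 was 0.93, 1.03 and 0.85 in untreated WT and 1.19, 1.20 and 1.14 in WT under DSS. In KO the ratio was 0.50, 0.60 and 0.45, and 1.04, 1.04 and 1.17 under DSS. Treated libraries lay above untreated ones in both genotypes, and untreated KO lay below untreated WT in every library. The mean rose from 0.94 ± 0.09 (SD, n = 3) to 1.18 ± 0.03 in WT and from 0.52 ± 0.08 to 1.08 ± 0.07 in KO by value, and 3 libraries against 3 cannot give an exact two-sided permutation p under 0.1.

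Over all 12 libraries, with labels exchanged only within a genotype, the DSS difference in the Psmb9 to Psmb6 log2 ratio was 0.40 (exact two-sided permutation p = 0.005, the smallest possible; 0.06 after adjustment over 18 tests of ratios). For Psmb8 to Psmb5 the DSS difference was 0.47 (exact permutation p = 0.01, adjusted 0.06), and for Psmb10 to Psmb7 it was 0.22 (exact permutation p = 0.095, adjusted 0.2). The difference of KO from WT within treatment was -0.26 for Psmb9 to Psmb6 (exact permutation p = 0.01, adjusted 0.06). None of the 18 passed after adjustment. Under DSS in KO the log2 fold changes of Psmb5, Psmb6 and Psmb7 were -0.39, -0.18 and -0.35. Those of Psmb8, Psmb9 and Psmb10 were 0.18, 0.38 and 0.09 there. In WT the standard subunits were at 0.10, 0.12 and 0.21 and the immunosubunits at 0.53, 0.36 and 0.26. None of these passed, and by value the higher ratios in KO thus also held lower denominators. Psmb5 shares 54.1% of its 50-base words with pseudogenes, mostly Gm3375, so its own level and the Psmb8 ratio are uncertain.

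**Figure D4:**
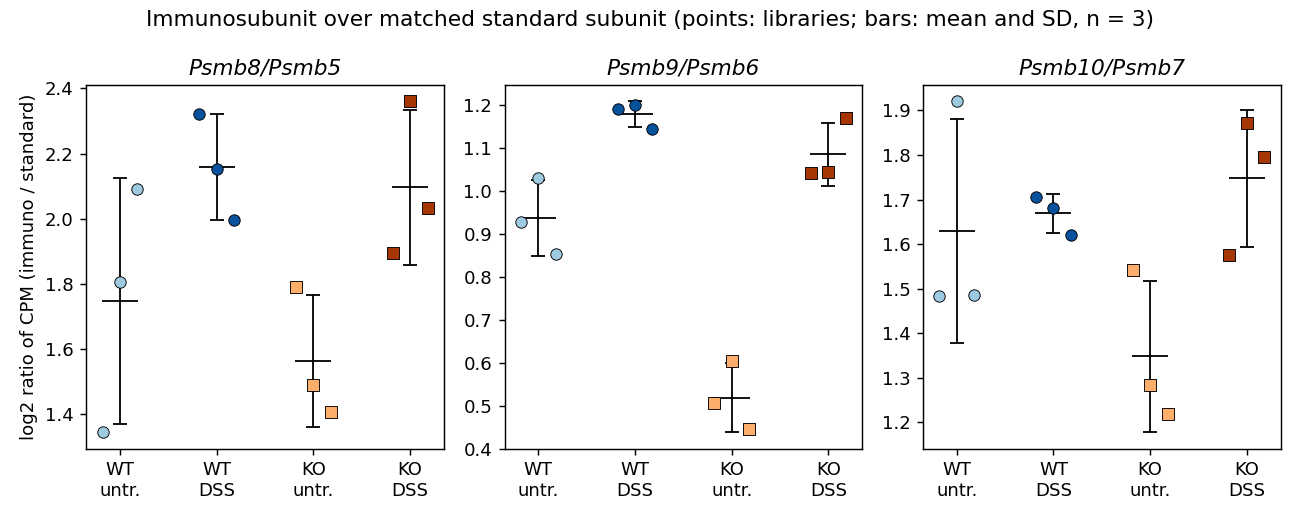
Log2 ratio of each immunosubunit to its standard partner by group (untr., untreated); points are libraries, bars are mean and SD of 3, and the vertical axes differ and do not start at 0. In the middle panel all 6 treated libraries lie above all 6 untreated ones, and the 3 untreated KO libraries are lowest.

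Between genotypes, none of the 10 genes passed, either untreated or under DSS. In edgeR's test, 3 of the 10 had an unadjusted p under 0.05 without DSS and 4 with it, where 15.4% and 14.6% of all genes did, and DESeq2 called 0 in both. By the adjusted p, over all genes 3.48% passed untreated and 3.11% under DSS, in either direction. The median log2 fold change of the 10 was -0.09 untreated and 0.02 under DSS, beside -0.0015 and 0.0027 over all genes. Untreated, all KO libraries lay above all WT ones for 2 of the 10 genes (9.81% of all genes) and below for 1 (9.52%). Under DSS they lay above for 3 (11.7%) and below for 3 (10.6%).

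Tapbp and Tap2 were at a higher level in KO than in WT in all libraries at matched treatment. For Tapbp the log2 fold change was 0.18 (95% interval 0.02 to 0.34) untreated and 0.17 (0.01 to 0.33) under DSS. For Tap2 it was 0.27 (0.05 to 0.49) and 0.26 (0.04 to 0.47). Tap1 was higher in KO under DSS alone by its values, with 0.21 (0.02 to 0.40) there and -0.10 (-0.29 to 0.10) untreated. These 3 had edgeR adjusted p between 0.190 and 0.704 in the genotype contrasts.

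H2-D1 was lower in all 3 untreated KO libraries than in untreated WT, with a log2 fold change of -0.18 (95% interval -0.34 to -0.02; edgeR adjusted p = 0.238, and 0.0429 without untreated WT replicate 3). Under DSS the heavy chains were at -0.05 (H2-K1, -0.20 to 0.10) and 0.02 (H2-D1, -0.14 to 0.18). Psmb8 and Psmb10 were lower in KO under DSS in every library, at -0.36 (-0.68 to -0.03) and -0.32 (-0.68 to 0.04). Without KO DSS replicate 1 these were -0.18 and -0.16, and with the leukocyte marker covariate -0.59 and -0.78. In these groups the summed standard subunits were at 1281 to 1661 CPM in KO and 1603 to 1854 in WT. The part of that in the subunit values was not tested.

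Whether the DSS change itself depended on genotype was asked by the interaction, and 0 of the 10 genes passed in edgeR, with 1 (Tap1) at an unadjusted p under 0.05, where 10.6% of all genes were, and 0 in DESeq2. Over all genes 1.70% passed. For Tap2 the difference of the changes was -0.02 (95% interval -0.33 to 0.29) and for Tapbp -0.01 (-0.24 to 0.22).

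Leukocytes also carry these genes at high levels, and leukocyte markers differed between the groups. Of the 26 markers 16 were tested. Of these, 6 were higher under DSS in WT, 1 under DSS in KO, 8 in untreated KO against WT and 4 in treated KO against WT, with none lower. Over all genes, 2.80% and 1.88% passed as higher under DSS in WT and KO. Between the genotypes, 3.48% untreated and 3.11% under DSS passed in either direction. With the mean marker level as a covariate the log2 fold change of Tap1 under DSS was 0.58 in WT (edgeR adjusted p = 0.212) and 0.84 in KO (edgeR adjusted p = 0.0233). With this covariate Tap2 (edgeR adjusted p = 0.342 in WT and 0.271 in KO) and Tapbp (0.359 and 0.280) no longer passed, at log2 fold changes of 0.52 and 0.47 for Tap2 and 0.37 and 0.34 for Tapbp. In the same fit H2-K1 was at 0.11 and 0.14 and H2-D1 at 0.05 and 0.24. B2m was at -0.89 in WT and -0.60 in KO. Psmb8 was at 0.23 and -0.034, Psmb9 at -0.26 and -0.069, and Psmb10 at -0.32 and -0.34. Nlrc5 was at 1.75 and 1.58. Of the 10 genes, Tap1 in KO was thus the 1 that passed with the covariate, and the part of leukocytes in the other values was not tested further. In log2 CPM the covariate was -0.32 to 0.26 in untreated WT and 0.95 to 1.24 in WT under DSS. In KO it was 1.00 to 1.17 untreated and 1.64 to 2.13 under DSS. It did not overlap between the treatments of a genotype, nor between the genotypes at matched treatment. In this fit, leukocyte level and group can therefore hardly be told apart.

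The other class I heavy chains include the nonclassical Qa and TL molecules. Of 22 listed genes, 15 were tested. In either direction, 6.30% of all genes passed under DSS in WT, 3.92% under DSS in KO and 3.11% between the treated genotypes. Under DSS in WT, H2-Q7 rose by a log2 fold change of 0.64 and H2-T3, which encodes the TL antigen of intestinal epithelium, fell by 1.46, from a mean of 49.4 CPM to 17.9. In KO the log2 fold change of H2-T3 was -0.79, from 32.7 to 19.0 CPM, without overlap of the libraries and without passing (edgeR adjusted p = 0.0792). Under DSS in KO, H2-T24 rose by 1.43, from 12.1 to 32.8 CPM, H2-Q6 rose by 0.65 and H2-Q1 fell by 0.91. Within treated mice, H2-T24 was 1.25 higher in KO and H2-Q1 was lower, at -0.93. The DSS change of H2-T24 differed between the genotypes by 1.35 without passing (edgeR adjusted p = 0.0553). H2-Q6 and H2-Q7 share 35.0% and 26.5% of their 50-base words with other genes, so their counts are uncertain, against 0.926% for H2-T3 and 3.17% for H2-T24.

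Among 11 tested loading and trimming proteins, 4 rose under DSS in WT: the aminopeptidase Lap3 (log2 fold change 0.52), the tapasin-related peptide editor Tapbpl (0.42, kept in 2 of the 12 fits that left out a library), and the chaperones Hspa5 (0.41) and Calr (0.40). In KO 0 passed by edgeR's test, and the values for these genes were 0.27, 0.37, 0.10 and 0.07. Over all genes, 2.80% passed as higher in WT and 1.88% in KO. Under DSS, Calr and Lap3 were lower in KO than in WT, both at -0.55, where 3.11% of all genes passed in either direction. The difference in DSS change was -0.32 for Calr (edgeR adjusted p = 0.352) and -0.25 for Lap3 (edgeR adjusted p = 0.674), and neither passed.

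None of the 19 other proteasome genes tested passed in any of the 5 contrasts. These were 3 standard catalytic subunits, 11 other 20S subunits and 5 activators or maturation factors. The median log2 fold change under DSS of the 3 catalytic subunits was 0.12 in WT and -0.35 in KO, and that of the 11 others 0.11 and -0.25.

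Of 19 tested transcription factors known to act at class I genes, 4 rose under DSS in WT (2.80% of all genes) and 7 in KO (1.88%). In WT these were Ciita, the master activator of class II genes (log2 fold change 0.79), Irf8 (0.59), Irf1 (0.52) and Stat3 (0.39). Those in KO included Stat2 (0.94), Irf8 (0.91) and Ciita (0.74), and Irf1 and Irf9 also passed. With the replicate block Ciita had edgeR adjusted p = 0.0581 there. Irf1, an interferon-induced activator of Tap1 and Psmb9 among others, rose alike by value, from a mean of 398 to 572 CPM in WT and from 348 to 502 CPM in KO, at 0.52 and 0.53.

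Stat2 and Irf9, which act in the response to type I interferon, differed between the genotypes in their change with DSS. Stat2 was at 172 to 180 CPM in untreated WT and 164 to 177 CPM in WT under DSS, but at 118 to 140 CPM in untreated KO and 238 to 256 CPM in KO under DSS. The ranges in WT overlapped, untreated KO lay below both and treated KO above both. The log2 fold change of Stat2 with DSS was -0.05 in WT and 0.94 in KO, and the difference of 0.99 passed (edgeR adjusted p = 0.00094). Irf9 went from 115 to 132 CPM without DSS to 108 to 126 CPM with it in WT, and from 112 to 119 CPM to 158 to 207 CPM in KO. Its difference of 0.72 was just past the threshold (edgeR adjusted p = 0.0483). It kept its call in 1 of the 12 fits that left out a library, that without KO DSS replicate 1, and ran from 0.58 to 0.79 (edgeR adjusted p = 0.0438 to 0.149). The call was also lost with the replicate block (edgeR adjusted p = 0.0964) and with the leukocyte marker covariate (edgeR adjusted p = 0.108). The Stat2 difference passed in all 12 such fits (edgeR adjusted p = 0.000791 to 0.00667), and with the block and the covariate.

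Of 13 genes of interferon receptors and signalling, 2 rose under DSS, in both genotypes: the feedback inhibitors Socs3 (log2 fold change 2.19 in WT and 1.37 in KO) and Socs1 (1.67 and 1.52). Over all genes, 2.80% passed as higher in WT and 1.88% in KO. Socs3 was lower in KO than in WT under DSS, at -0.79 (edgeR adjusted p = 0.0483), a call kept in 3 of the 12 fits that left out a library.

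**Figure D5:**
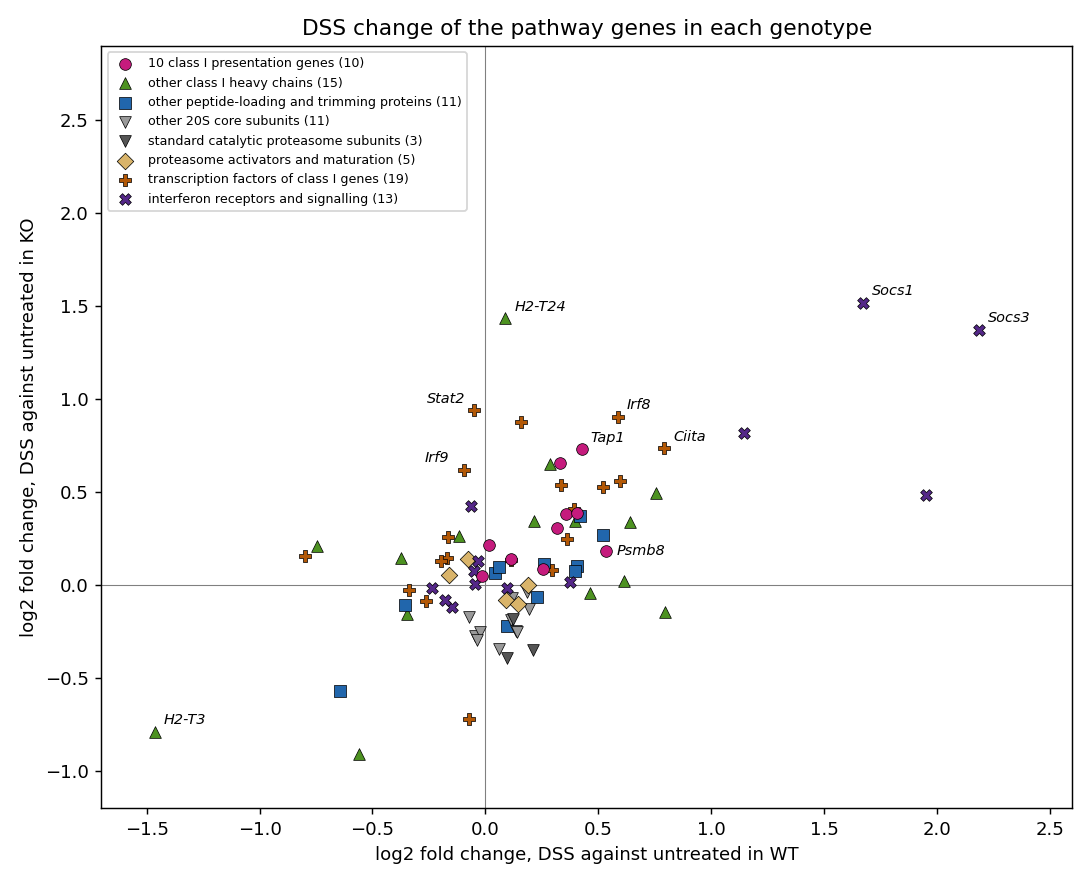
Log2 fold change under DSS in KO (vertical) against that in WT (horizontal) for the 10 genes and 7 related lists, 1 point per gene with the number of genes in brackets. Tap1 and Psmb8 lie on either side of the diagonal, Stat2, Irf9 and H2-T24 lie near 0 in WT and above 0.6 in KO, and the standard proteasome subunits lie around or below 0 in KO.

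The stretch of chromosome 17 with 7 of the genes also held 64 other tested genes. Of these, 5 were higher and 2 lower under DSS in WT, and 2 were higher and 2 lower under DSS in KO. Over all genes tested, 6.30% passed in either direction in WT and 3.92% in KO. The median log2 fold change of these neighbours was 0.27 in WT and -0.05 in KO.

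Across the 12 libraries the 10 genes varied together to different degrees. Pearson's r of each gene with the mean of the other 9, on standardized log2 CPM, was 0.85 for Tap1, 0.79 for Psmb9, 0.72 for H2-K1, 0.68 for Psmb8, 0.64 for Tapbp, 0.55 for H2-D1, 0.50 for Psmb10 and 0.50 for Tap2. It was 0.26 for B2m and 0.22 for Nlrc5. Among genes outside the 10 whose mean log2 CPM was 3 or more, the pattern most like their mean was that of Elf3, an epithelial ETS factor (r = 0.95), followed by the keratin Krt7 (0.93), Smim14 (0.93), Irf1 (0.93) and Zscan26 (0.93). These values describe 12 libraries that share 4 groups, and libraries also share their depth and scaling.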

How the data were processed

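RNA of colonic IECs was copied by the SMART-seq2 method, without strand information or molecular identifiers, and tagmented with Nextera XT, per the labels' protocols. About 90% purity by flow cytometry and a median RNA integrity number of 8.8 are given there. The deposited values are raw read counts per gene: whole numbers whose totals differ between libraries, so no scaling by the authors is seen in them. The submitters' processing notes name STAR 2.5.2b, featureCounts 1.5.0 and GRCm38 (mm10). The annotation release and the counting strand are not given in the sources used here. Gene IDs were matched without version to GENCODE M21 symbols (46005 of 46517).

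Counts were tested with edgeR 4.0.16 in R 4.3.3: filterByExpr (12522 genes, 99.8% of counts), TMM scaling, 1 coefficient per group over 12 samples, and two-sided quasi-likelihood F tests of 5 contrasts. An adjusted p is by Benjamini-Hochberg over all genes tested. The SE is the log2 fold change over the square root of F. The common biological coefficient of variation was 0.227. The test was tried on simulated counts. Ratios used log2 CPM with a prior count of 2 and exact permutation tests. RPKM used joined exon lengths. DESeq2 1.42.0 and the other fits were alternatives.

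The genes and lists were chosen with earlier results of these data known. Named genes were the 10, Nfkb2, from each list at most 4 higher and 4 lower past the threshold per contrast, and the 5 most like the mean of the 10. Not every gene that the rule selects is reported.

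The titles number samples 1 to 3 in each group. Deviations from group means correlated between same-numbered untreated and DSS samples by 0.204, 0.106 and 0.127 in KO and by 0.0138, 0.12 and 0.128 in WT. Such samples carry successive library numbers in both genotypes, as 8519 and 8520 in WT and 8525 and 8526 in KO. The labels state no pairing. The replicate block, an alternative fit, was 1 factor of the replicate number over all 12 libraries. It was shared by both genotypes and did not pair the KO groups alone. No pair of replicates agreed within sampling noise. The labels call the replicates biological, and p-values cover the spread between these samples.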

Additional observations from a re-analysis of the deposited data

Results flagged for a closer look

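The DSS change differed between the genotypes, by a test of the difference itself, for 2 genes of the lists. Both were among the 19 tested transcription factors, and over all genes 1.70% passed this test. Stat2 had a log2 difference (KO minus WT) of 0.99 ± 0.14 (SE), and Irf9 one of 0.72 ± 0.17. The Stat2 difference passed in all 12 fits that left out a library, and the Irf9 difference in 1 of them. In KO both were higher under DSS in 3 of 3 libraries than in any untreated library, and in WT treated and untreated libraries overlapped. None of the 10 class I presentation genes had such a difference that passed.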

How the results depend on the processing

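Of the 10 genes, 3 passed under DSS in WT, but 1 with only the 2 groups in the fit (Psmb8, not 1 of these 3), 0 with a leukocyte marker covariate and 0 to 4 when each library was left out in turn. In KO 3 passed, but 1 without a filter on low counts, 1 with the leukocyte covariate, 1 with the replicate block and 1 to 4 on leaving out a library. Untreated KO against WT had 0 to 1 on leaving out a library. Over all genes, the number passing under DSS in WT was 789, with 467 from the 2 groups alone, 173 with the leukocyte covariate and 483 to 958 on leaving out a library. Under DSS in KO it was 491, with 800 by DESeq2, 776 unfiltered, 103 with the covariate and 235 to 710. For untreated KO against WT it was 436, with 790 by DESeq2, 703 unfiltered, 195 from 2 groups, 54 with the covariate and 212 to 725. For treated KO against WT it was 390, with 661, 642 and 81 (DESeq2, unfiltered, covariate) and 160 to 566. For the interaction it was 213, with 360 by DESeq2, 356 unfiltered and 152 to 350.

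Some estimates that did not pass changed sign. With the leukocyte covariate these were, under DSS in WT, Psmb9 (-0.26) and Psmb10 (-0.32); under DSS in KO, B2m (-0.60), Psmb8 (-0.034), Psmb9 (-0.069) and Psmb10 (-0.34); in KO against WT, Tap1 (0.065) and Nlrc5 (1.30) untreated and B2m (-0.68) under DSS; and Nlrc5 (-0.17) in the interaction. Psmb8 in untreated KO against WT was 0.006 unfiltered and 0.0092 from 2 groups. On leaving out a library, B2m ran from -0.19 to 0.17 (DSS in WT), -0.12 to 0.20 (DSS in KO), -0.22 to 0.14 (KO against WT untreated), -0.15 to 0.14 (under DSS) and -0.13 to 0.23 (interaction). H2-D1 ran from -0.036 to 0.047 (DSS in WT) and -0.0066 to 0.066 (KO against WT under DSS), and Psmb10 from -0.031 to 0.24 (DSS in KO). In KO against WT, Nlrc5 ran from -0.29 to 0.36 under DSS and -0.41 to 0.25 untreated, and Psmb8 from -0.12 to 0.12 untreated. In the interaction H2-K1 ran from -0.018 to 0.068, Nlrc5 from -0.12 to 0.56, Psmb9 from -0.15 to 0.22, Tap2 from -0.076 to 0.030 and Tapbp from -0.042 to 0.011.

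With the mean of Psmb5, Psmb6 and Psmb7 as denominator, the KO against WT ratio under DSS was 0.060 for Psmb9 and -0.045 for Psmb10. On leaving out a library the DSS differences within genotype ran from 0.37 to 0.56 (Psmb8), 0.38 to 0.43 (Psmb9) and 0.18 to 0.29 (Psmb10), the Psmb9 difference of KO from WT within treatment from -0.28 to -0.23, the Psmb10 one under DSS in WT from -0.034 to 0.18, and the Psmb8 one of KO from WT under DSS from -0.19 to 0.039. The cause of these changes was not tested.

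Same-numbered samples correlated by 0.0138 to 0.128 for DSS in WT, where pairs 2 and 3 (0.12 and 0.128) were like those in KO (0.106 and 0.127). A pairing in KO alone was thus not established. For KO against WT the correlations were -0.175 to -0.0535 untreated and -0.117 to -0.0103 under DSS, and the block still joined these numbers. The replicate block brought Psmb8 past the threshold under DSS in WT (adjusted p = 0.0309) and changed no other member's call beyond those named. With 3 libraries a group, the 95% intervals of B2m and Nlrc5 are wider than the changes seen in Tap1. Among the related lists, the calls kept in all 12 fits that left out a library were 5 of 12 under DSS in WT, 6 of 12 under DSS in KO, 0 of 2 and 1 of 7 for KO against WT untreated and under DSS, and 1 of 2 in the interaction.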
